A study of Mus musculus with 11 samples.

Results

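Mature B lymphocytes carry a characteristic set of surface proteins, and 10 genes that encode them were followed through RNA-Seq of whole mouse distal tibiae. The genes were Cd79a, Ms4a1, Cr2, Fcer2a, Cd22, Fcmr, Cxcr5, Tnfrsf13c, Ighm and Ighd, taken by symbol from the deposited gene table. All 10 of them were among its 22600 genes, and all 10 were among the 16496 genes that passed the filter on low counts and were tested. The study compared 4 Control mice with 7 BMAd-DTA mice, one library per mouse, to ask how loss of bone marrow adipocytes (BMAds) alters gene expression in the bone that surrounds them. All 11 mice were 24 weeks old, of the mixed C57BL6/SJL strain, fed ad libitum and given no treatment.

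Both groups carried Osterix-FLPo and a FLPo-dependent Adipoq-Cre (FAC), since the study's methods state this for every mouse used. Cre therefore depends on 2 promoters, a combination met in BMAds. FLPo from Osterix-lineage cells has to activate Cre, and the Adipoq promoter has to express it. The study states that Cre also appeared to reach a small part of the marrow adipogenic lineage precursors, which express Adipoq and Cxcl12. BMAd-DTA mice additionally carried ROSA-DTA, in which Cre removes a LoxP-flanked STOP cassette ahead of diphtheria toxin A, a toxin that kills the cell making it. The study states that recombination was less complete in young animals, and that some BMAds remain in distal tibiae. The bone was cut at the tibia/fibula junction and powdered whole, so that marrow, mineralised bone and attached soft tissue were measured together.

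B cells are made in the bone marrow and pass through pro-B and pre-B stages before they display a B cell receptor. That receptor is a membrane immunoglobulin, IgM and later also IgD, held by the signalling chains Cd79a and Cd79b. Mature naive B cells circulate through blood, spleen, lymph nodes and marrow, and an activated B cell can become a plasma cell that secretes antibody. Ighm and Ighd are the constant region genes of IgM and IgD. Ighm also encodes the secreted IgM of plasma cells, and Cd79a is already made at the pro-B stage, so neither gene is restricted to mature B cells. Expression per gene, as counted here, does not separate membrane from secreted IgM.

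Of the 10 genes, 6 had an entry in the RefSeq promoter table (GRCm38.p6), and the 250 bases before the annotated start were searched on both strands for 5 motifs named in B cell gene regulation. Part of these windows is shown for 3 of the 6 genes, being the stretches outside all annotated exons for Cd79a, which heads the list by p-value, and for Cr2 and Tnfrsf13c, the genes with a single listed start and no annotated exon in the window. Each is written 5′ to 3′ on the strand of the gene, and capitals mark a match to CAGGTG (the E-box bound by E2A) or to GAGGAA (an ETS motif of the PU.1 type) on either strand. The Cd79a stretch is chr7:24897247-24897380 on the plus strand and ends where its first exon is annotated. The Cr2 stretch is chr1:195176720-195176969 and the Tnfrsf13c stretch chr15:82224381-82224630, both on the minus strand.
Cd79a: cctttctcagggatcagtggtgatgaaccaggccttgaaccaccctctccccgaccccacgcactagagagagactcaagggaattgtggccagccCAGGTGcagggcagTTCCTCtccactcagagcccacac
Cr2: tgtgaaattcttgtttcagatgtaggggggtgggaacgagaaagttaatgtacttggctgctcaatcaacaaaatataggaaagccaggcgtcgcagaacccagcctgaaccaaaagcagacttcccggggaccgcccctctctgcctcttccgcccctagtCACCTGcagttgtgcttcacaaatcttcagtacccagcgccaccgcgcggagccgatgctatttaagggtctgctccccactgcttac
Tnfrsf13c: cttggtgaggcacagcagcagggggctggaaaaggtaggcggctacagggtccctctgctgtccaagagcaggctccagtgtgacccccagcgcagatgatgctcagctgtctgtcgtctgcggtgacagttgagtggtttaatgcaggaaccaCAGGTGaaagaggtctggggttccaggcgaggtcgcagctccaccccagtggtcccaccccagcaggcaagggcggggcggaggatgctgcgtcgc

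The E-box was found in 5 of the 6 genes' windows, against 17.2% of the 32851 promoters in the table. Fcer2a counted among the 5 through 1 of its several listed starts. The ETS motif was found for 2 genes, Cd79a and Fcmr (23.3% of all promoters), and TCCCNNGGGA, the EBF motif, for Cd22 alone (0.779%). By the GENCODE M21 annotation, however, the Fcmr match lies past the annotated gene start, and the Cd22 window lies within the annotated gene. Neither the octamer ATGCAAAT (1.6%) nor the NF-kB motif GGGACTTTCC (0.14%) was in any of the 6 windows. No motif was allowed a mismatch, the matches shown do not overlap one another, and a match or its absence describes these letters only.

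The levels of the 10 genes were compared as CPM, the counts of a gene scaled to a common library size, in libraries of 16969529 to 18637663 counts. Every gene had at least 128 counts in every library, so that counting error alone gave a coefficient of variation of at most 8.84%. The spread between mice was far wider, at 30.1% to 53.1% of the mean within a group. In a bulk library, fewer cells of a type and less RNA per cell cannot be told apart.

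One library, Control 1, stood apart from the rest, and many values are also given without it. A value printed without such a figure was not always stable. Leaving out Control 1 moved the log2 fold change of Ms4a1 from 0.63 to 0.40 and that of Ccl21a from 0.19 to 0.60. Among 12973 genes that averaged 50 counts or more, 118 were more than 1 log2 unit below every other library in Control 1 and 12 were more than 1 log2 unit above, against at most 24 and 7 in any other library. Its 10 osteoblast genes summed to 2850 CPM, against 11339 to 35968 CPM in the other 10 libraries. Its part in the levels of the B cell genes was examined only by leaving it out. Xist had 13810 to 20260 counts in every library and the Y-linked genes examined had 0 or 1. The labels give no sex, and these counts are the pattern of female mice. The study used both sexes in different experiments, and the legends of its figures with RNA-Seq of distal tibiae describe male mice. This difference was not resolved here.

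Adjusted for length, as CPM per kilobase of merged exons in controls, the order ran from Ighm at 974 through Cd79a at 141, Ighd at 91.4, Fcmr at 29.8, Cd22 at 17.2, Tnfrsf13c at 13.0, Fcer2a at 13.0, Ms4a1 at 8.85 and Cxcr5 at 6.82 to Cr2 at 1.79. Each neighbouring pair in this order kept its rank in all 11 libraries except Tnfrsf13c and Fcer2a, which were in this order in 6 of 11. Merged exons include long or rarely used ends, and Cr2 and Ms4a1 had the longest, at 8112 and 6187 bases, against 1457 bases for Cd79a.

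**Figure D1:**
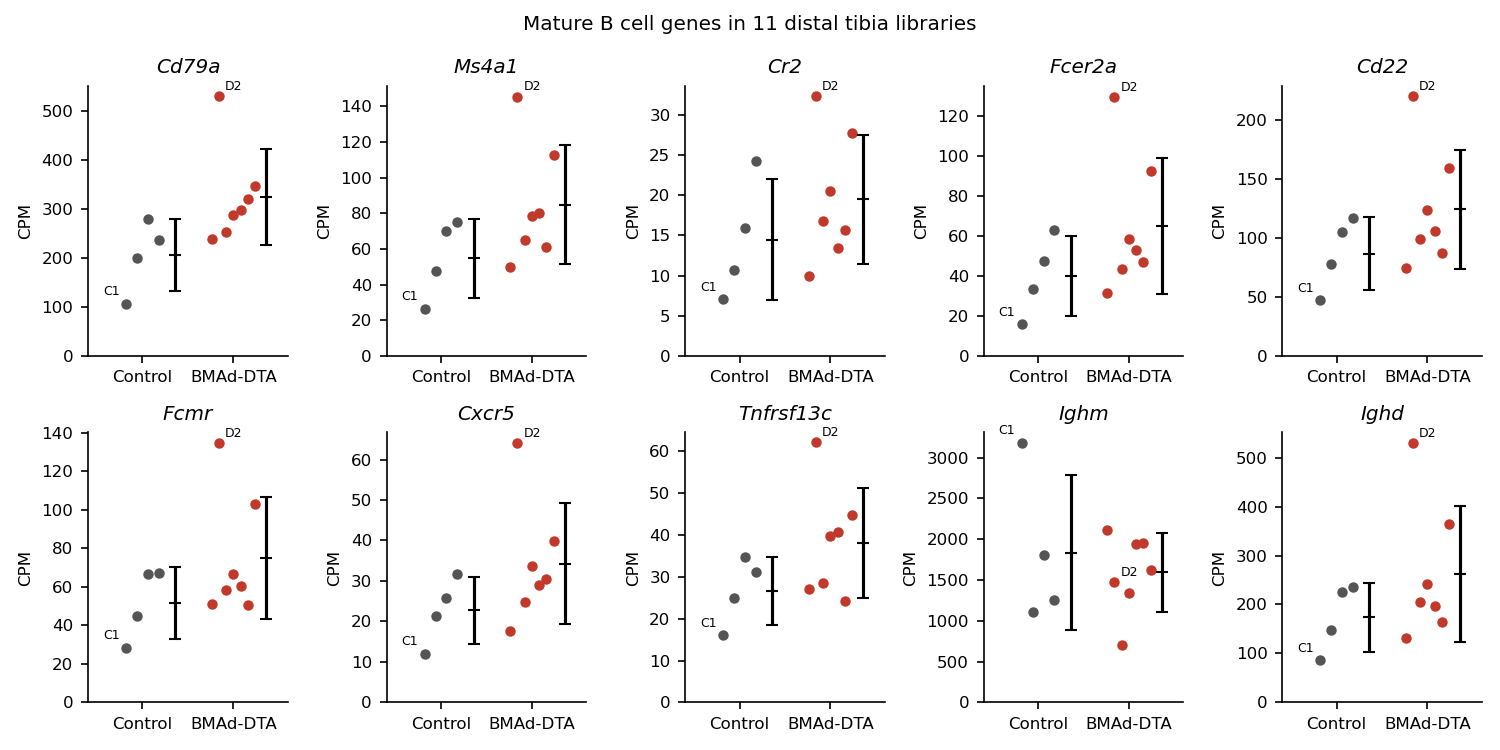
Each panel shows 1 mature B cell gene, with CPM on a linear axis from 0, a point for each mouse (4 Control in grey, 7 BMAd-DTA in red) and a bar for the mean ± SD of the group. C1 and D2 mark Control 1 and BMAd-DTA 2. Control 1 is the lowest point and BMAd-DTA 2 the highest point for 9 of the 10 genes, whereas Ighm is highest in Control 1, and the groups overlap in every panel.

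In 9 of the 10 genes the fitted level was higher in BMAd-DTA than in Control tibiae, by 0.43 to 0.69 on the log2 scale, and for Ighm it was lower. By edgeR's quasi-likelihood F test, with Benjamini-Hochberg adjusted p-values from the whole table, none of the 10 fell under 0.05, whereas 0.0788% of genes (13) did. One of them, Cd79a, had an unadjusted p under 0.05, as had 16.4% of all genes tested (2708). In DESeq2, the tool that the study's methods name, 0 of the 10 passed and 5.42% of genes did. The groups were fully separated for none of the 10 genes, against 2.81% of all genes. The median fitted log2 fold change over the 10 genes was 0.56, whereas it was 0.0018 over all genes tested, of which 50.4% had a positive value.

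Cd79a (ENSMUSG00000003379.7; GRCm38 chromosome 7, 24897381 to 24902197, plus strand), which encodes the Ig-alpha signalling chain of the B cell receptor, had the lowest p-value of the set. Its level in the 4 controls was 107, 201, 279 and 237 CPM, and in BMAd-DTA mice it ran from 239 through a median of 298 to 531 CPM. Of the 7 BMAd-DTA libraries, 5 were above every control, and the other two lay below Control 3 only. The means were 206 ± 73.6 CPM (SD, n = 4) and 325 ± 97.8 CPM (SD, n = 7), a fitted fold of 1.58, and a log2 fold change of 0.66 (SE 0.25, 95% interval 0.12 to 1.20). This had an unadjusted p of 0.0208 and an adjusted p of 0.207 in edgeR's quasi-likelihood test, and a two-sided exact permutation test of log2 CPM over the 330 allocations of the mice gave p = 0.0182. The smallest p that these allocations allow is 0.0030. Without Control 1 the log2 fold change was 0.44, with an exact permutation p of 0.125.

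Ms4a1 (ENSMUSG00000024673.9; chromosome 19, 11249675 to 11266241, minus strand) encodes CD20, a membrane protein found on B cells from the pre-B to the memory stage. Controls had 26.6, 47.8, 69.8 and 74.9 CPM, and BMAd-DTA mice 50.1 to 145 CPM with a median of 78.4. There were 4 BMAd-DTA libraries above every control, and Control 1 was the lowest of all. The log2 fold change was 0.63 (SE 0.31, 95% interval -0.044 to 1.30), with an adjusted p of 0.334 in edgeR.

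Cd22 (ENSMUSG00000030577.14; chromosome 7, 30865402 to 30880342, minus strand) encodes a sialic acid-binding lectin that restrains signalling from the B cell receptor. Controls had 47.3, 78.0, 105 and 117 CPM, and BMAd-DTA mice 74.6 to 220.2 CPM with a median of 106. In 3 of the 7 the level was above every control, and the remaining 4 lay within the range of the controls. The log2 fold change was 0.52 (SE 0.30, 95% interval -0.12 to 1.16), with an adjusted p of 0.408 in edgeR. Cd22 counts per Cd79a count ranged from 0.274 to 0.492 over the 11 libraries, a narrower span than that of either gene.

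Fcmr (ENSMUSG00000042474.6; chromosome 1, 130865669 to 130880791, plus strand) encodes the Fc receptor for IgM. Controls had 28.3, 44.8, 66.6 and 67.1 CPM, and BMAd-DTA mice 50.6 to 135 CPM with a median of 60.7. Only 2 of the 7 were above every control, and the median of the BMAd-DTA mice was below the highest pair of controls. The log2 fold change was 0.54 (SE 0.30, 95% interval -0.12 to 1.19), with an adjusted p of 0.402 in edgeR.

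Cr2 and Fcer2a encode CD21, the complement receptor of marginal zone and follicular B cells, and CD23, the low affinity IgE receptor of follicular B cells. For Cr2 (ENSMUSG00000026616.16; chromosome 1, 195136811 to 195176716, minus strand) controls had 7.05, 10.7, 15.9 and 24.3 CPM, and BMAd-DTA mice 9.96 to 32.3 CPM with a median of 16.8. For Fcer2a (ENSMUSG00000005540.10; chromosome 8, 3681737 to 3694175, minus strand) controls had 16.04, 33.7, 47.7 and 63.2 CPM, and BMAd-DTA mice 31.3 to 129 CPM with a median of 52.8. In both genes only BMAd-DTA 2 and BMAd-DTA 7 were above every control, and the spread was the widest for Fcer2a, whose highest library was 8.07 times its lowest. The log2 fold change was 0.43 for Cr2 (SE 0.35, 95% interval -0.33 to 1.18), the smallest of the 9 positive values, with an adjusted p of 0.595 in edgeR. It was 0.69 for Fcer2a (SE 0.40, 95% interval -0.17 to 1.55), the largest value with the widest interval, with an adjusted p of 0.412 in edgeR.

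Cxcr5 and Tnfrsf13c encode receptors for signals from the surrounding tissue, the former for the follicle chemokine Cxcl13 and the latter for the B cell survival factor BAFF. For Cxcr5 (ENSMUSG00000047880.15; chromosome 9, 44511787 to 44561877, minus strand) controls had 12.0, 21.4, 25.8 and 31.7 CPM, and BMAd-DTA mice 17.7 to 64.1 CPM with a median of 30.6. For Tnfrsf13c (ENSMUSG00000068105.11; chromosome 15, 82221743 to 82224369, minus strand) controls had 16.1, 24.9, 34.6 and 31.2 CPM, and BMAd-DTA mice 24.2 to 62.2 CPM with a median of 39.8. The level was above every control in 3 BMAd-DTA libraries for Cxcr5 and in 4 for Tnfrsf13c. The log2 fold changes were 0.59 (SE 0.32, 95% interval -0.089 to 1.27) and 0.51 (SE 0.26, 95% interval -0.047 to 1.08), with adjusted p of 0.372 and 0.345 in edgeR.

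The genes of these ligands, Cxcl13 and Tnfsf13b, belonged to a list of 7 B cell ligand genes. Of the 7, 3 were higher and 4 lower in BMAd-DTA tibiae, around a median of -0.067 on the log2 scale and none past the adjusted threshold. Tnfsf13b, the gene of BAFF, had 19.8 CPM on average in controls and 18.9 CPM in BMAd-DTA mice (log2 fold change -0.067, SE 0.14, adjusted p 0.862 in edgeR). Cxcl13 was at 3.61 CPM or less in every library (log2 fold change -0.14, SE 0.52). The extremes of the list were Tnfsf13 at 0.026 and the complement gene C4b at -0.45 (unadjusted p 0.0441, adjusted p 0.288 in edgeR). Its most abundant member was Cxcl12, the chemokine that retains precursors in marrow, at 3357 and 3404 CPM on average (log2 fold change 0.020). Without Control 1 the ligand list was 1 higher and 6 lower with a median of -0.12, Cxcl12 stood at -0.11 and Cxcl13 at -0.38.

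Ighd (ENSMUSG00000104213.5; chromosome 12, 113406604 to 113416324, minus strand) is expressed by alternative splicing in mature naive B cells and is switched off in most plasma cells. Controls had 86.2, 148, 225 and 235 CPM, and BMAd-DTA mice 132 to 529 CPM with a median of 205. Above every control were 3 of the 7, with BMAd-DTA 2 far above the rest and BMAd-DTA 1 below 3 of the 4 controls. The log2 fold change was 0.59 (SE 0.37, 95% interval -0.20 to 1.39), with an adjusted p of 0.453 in edgeR.

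Ighm (ENSMUSG00000076617.9; chromosome 12, 113418558 to 113422730, minus strand) departed from the other 9 genes. Controls had 3185, 1104, 1801 and 1254 CPM, and BMAd-DTA mice 707 to 2113 CPM with a median of 1627. The highest value of all was in Control 1, the library in which the other 9 genes were lowest, and no BMAd-DTA library was above it. The log2 fold change was -0.20 (SE 0.30, 95% interval -0.86 to 0.45), with an adjusted p of 0.795 in edgeR and a two-sided exact permutation p of 0.685. Without Control 1 it was 0.20, and a limma-voom fit of all 11 libraries with sample quality weights gave 0.037. The direction for Ighm was therefore not stable.

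**Figure D2:**
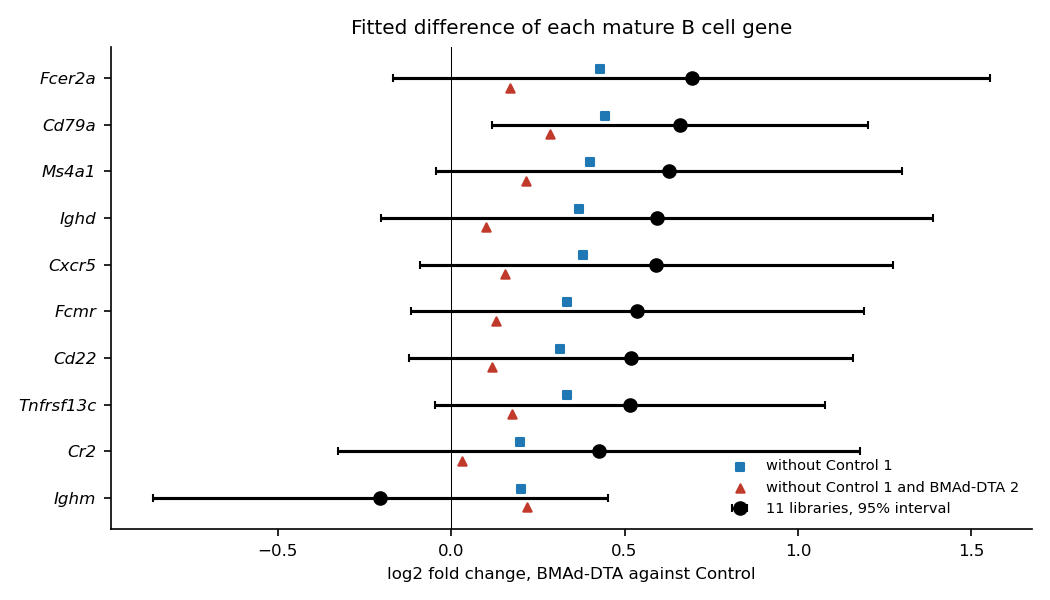
The fitted log2 fold change of BMAd-DTA against Control (horizontal axis) is shown for each mature B cell gene, as a black point with its 95% interval for all 11 libraries, a blue square without Control 1 and a red triangle without Control 1 and BMAd-DTA 2. The interval of Cd79a alone lies above 0, and all 10 values move to between 0.030 and 0.28 when both libraries are left out.

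The size of the difference over the 10 genes depended on the extreme library of each group. Their median log2 fold change of 0.56 was 0.35 without Control 1, 0.34 without BMAd-DTA 2 and 0.16 without both. The last was an alternative chosen after seeing the data. For 9 of the 10 genes Control 1 was the lowest library and BMAd-DTA 2 the highest. Leaving them out therefore had to reduce the difference for these genes, and does not show that either library was at fault. Without Control 1 the fitted value was above 0 for all 10 genes, from 0.20 for Cr2 and Ighm to 0.44 for Cd79a, none had an unadjusted p under 0.05, and edgeR called 0 genes in the whole table (1784 had an unadjusted p under 0.05). With both left out Cd79a stood at 0.28, Ms4a1 at 0.22 and Ighm at 0.22, whereas Cr2 at 0.030 and Ighd at 0.10 were near 0.

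**Figure D3:**
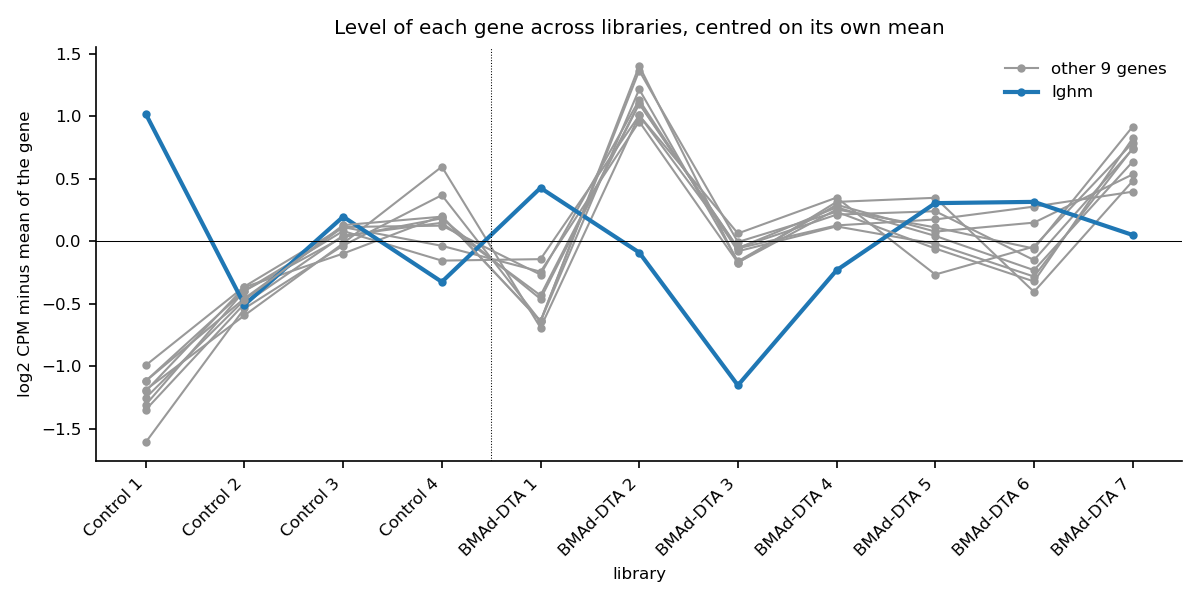
Log2 CPM of each mature B cell gene is plotted by library after subtracting that gene's mean over the 11 libraries, with the 4 Control libraries left of the dotted line and the 7 BMAd-DTA libraries right of it, Ighm in blue and the other 9 genes in grey. The grey lines run together, lowest in Control 1 and highest in BMAd-DTA 2, and the blue line is highest in Control 1 and lowest in BMAd-DTA 3.

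The 9 genes other than Ighm varied together from mouse to mouse. Over their 36 pairs, Pearson's r of log2 CPM across the 11 libraries was 0.82 to 0.99 with a median of 0.95, and Spearman's rho was 0.65 to 0.98 with a median of 0.91. Without Control 1 and BMAd-DTA 2 the range of r was 0.54 to 0.99 with a median of 0.87, and within the 7 BMAd-DTA libraries it was 0.77 to 0.996 with a median of 0.94. These are descriptions of 11 libraries, in which both genes of a pair share the library, its depth and its mixture of cells. Ighm paired with the other 9 at r between -0.45 and -0.29, and at -0.19 to 0.44 without the same 2 libraries.

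The genes whose log2 CPM was most like the mean of the 10 across the 11 libraries were searched among 12963 genes that averaged 50 counts or more. Those with a high r were Cd79b (0.98), Bin1 (0.98), Cyp27a1 (0.97), Blk (0.97), Srpk3 (0.96), Lmbrd1 (0.96) and F730311O21Rik (0.95). Cd79b encodes the partner chain of Cd79a, and Blk a B lymphoid kinase. Without Control 1 and BMAd-DTA 2, r was 0.94 for Cd79b, 0.95 for Bin1 and 0.88 for Blk.

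Mature B cell genes were set against the antibody genes through the number of Ighd counts per Ighm count. In controls it was 0.0271, 0.134, 0.125 and 0.188, and in BMAd-DTA mice it ran from 0.0625 through a median of 0.181 to 0.358. Control 1 was below every other library, and the groups overlapped. The mean log2 ratio was higher by 0.70 in BMAd-DTA mice, with an SD of 1.24 among controls and 0.95 among BMAd-DTA mice, and by 0.090 without Control 1. Ighm counts per Cd79a count were 29.9 in Control 1 and 2.78 to 8.84 in the other 10 libraries.

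**Figure D4:**
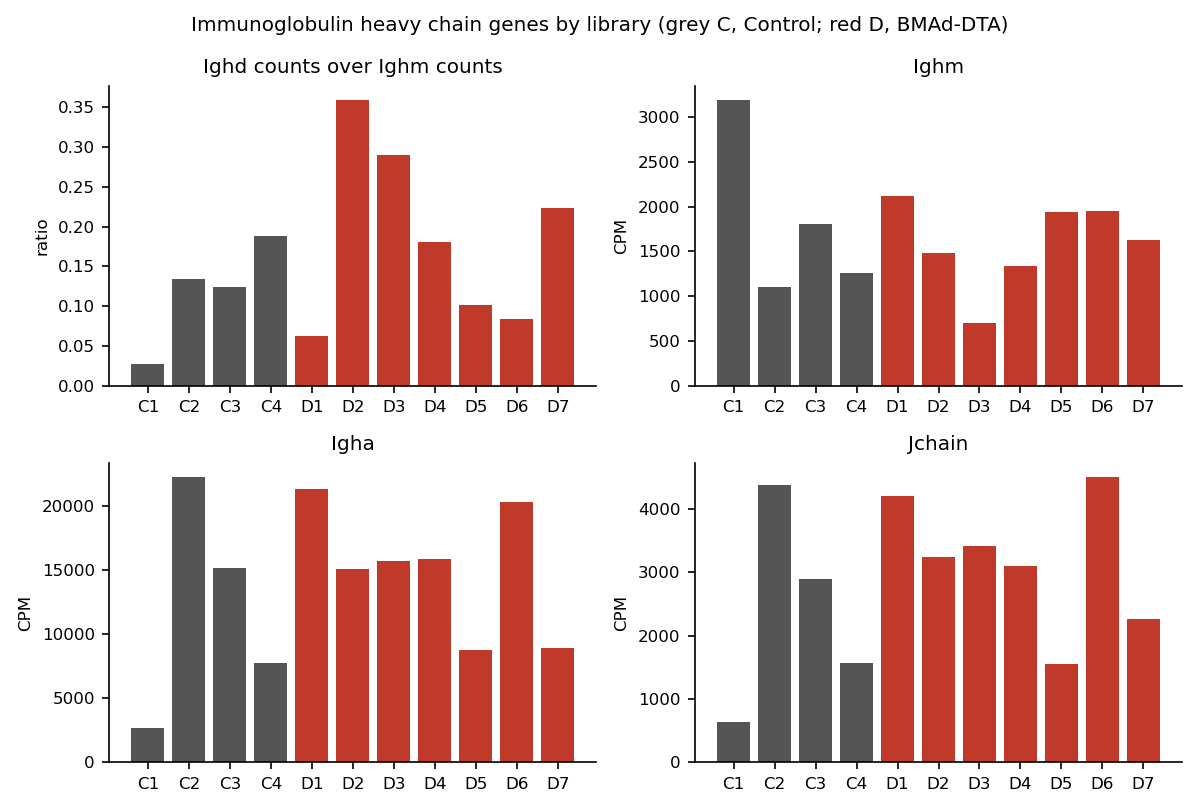
Bars from 0 give, for each library (C1 to C4 Control in grey, D1 to D7 BMAd-DTA in red), the Ighd counts per Ighm count and the CPM of Ighm, Igha and Jchain. Control 1 has the highest Ighm at 3185 CPM and the lowest Igha at 2676 CPM, Jchain at 634 CPM and Ighd per Ighm at 0.0271.

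The high Ighm of Control 1 was not shared by other antibody genes. Its Igha, the IgA constant region gene, was at 2676 CPM against 7783 to 22257 CPM in the other 10 libraries, its Jchain, the joining chain of IgM and IgA, at 634 CPM against 1545 to 4506 CPM, and its Igkc, the kappa light chain constant region, at 4046 CPM against 5696 to 17371 CPM. The summed variable region genes were also lowest there, at 762 CPM for Ighv (1721 to 3510 CPM elsewhere) and 1373 CPM for Igkv (2807 to 5925 CPM elsewhere). Fcrl5, a receptor-like gene of mature and marginal zone B cells, was highest in Control 1 at 35.9 CPM, with 1.20 to 12.6 CPM in the other 10.

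The other genes of the B lineage were described by lists of surface, signalling and stage-specific genes. Of 20 B cell receptor signalling genes, 14 were higher and 6 lower in BMAd-DTA tibiae, 1 had an unadjusted p under 0.05, and the median log2 fold change was 0.047. It ran from Lilrb4a at -0.13 to Cd79b at 0.55 (103 and 151 CPM on average, adjusted p 0.337 in edgeR), and its most abundant member, Syk, which many blood cells express, stood at 0.093. Their median was 0.028 without Control 1, with 0 genes at an unadjusted p under 0.05. Of 12 transcription factors of B cell identity, 9 were higher and 3 lower with a median of 0.20, from Pou2f2 at -0.10 to Spib at 0.36 (adjusted p 0.643 in edgeR), with the most abundant, Irf8, at 0.083. Without Control 1 this median was 0.11, with Spib at 0.18 and Pou2f2 at 0.077, and without Control 1 and BMAd-DTA 2 it was 0.012. None of the genes in both lists passed the adjusted threshold.

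Of 18 further surface and homing genes of B cells, 12 were higher and 6 lower, with a median of 0.084. In edgeR 7 of them had an unadjusted p under 0.05, against 16.4% of all genes tested, and none passed the adjusted threshold. Ccr7, the receptor that guides lymphocytes into lymph nodes, was the highest at 0.78 (9.12 and 15.7 CPM on average, adjusted p 0.148 in edgeR), and T cells express it also. Fcrl5 was the lowest at -2.50 (adjusted p 0.0967 in edgeR), and at -1.25 without Control 1. The most abundant, Cd24a, is shared with erythroid and other marrow cells and stood at -0.31 (adjusted p 0.223 in edgeR). The list had a median of 0.038 without Control 1, with 3 genes at an unadjusted p under 0.05, against 1784 of 16766 genes in the whole table.

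Precursors of the B lineage were represented by 13 pro-B and pre-B genes, of which 12 were higher and 1 lower, 1 with an unadjusted p under 0.05 and none past the adjusted threshold. Their median log2 fold change was 0.23, and 0.014 without Control 1. Vpreb3, which acts in pre-B receptor assembly, was the highest at 0.65 (adjusted p 0.350 in edgeR), and Cd93, the lowest at -0.033 and the most abundant, is also made by other cells. Of 14 plasma cell genes, 13 were higher and 1 lower, 0 with an unadjusted p under 0.05, and the median was 0.37, or 0.12 without Control 1. Ighg1 was the highest of them at 1.32 (SE 0.76, adjusted p 0.412 in edgeR) and Ighg2b the lowest at -0.072, with Igha the most abundant at 0.34 (SE 0.44). Without Control 1 these genes stood at 1.10 for Ighg1, -0.32 for Ighg2b and 0.0052 for Igha.

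**Figure D5:**
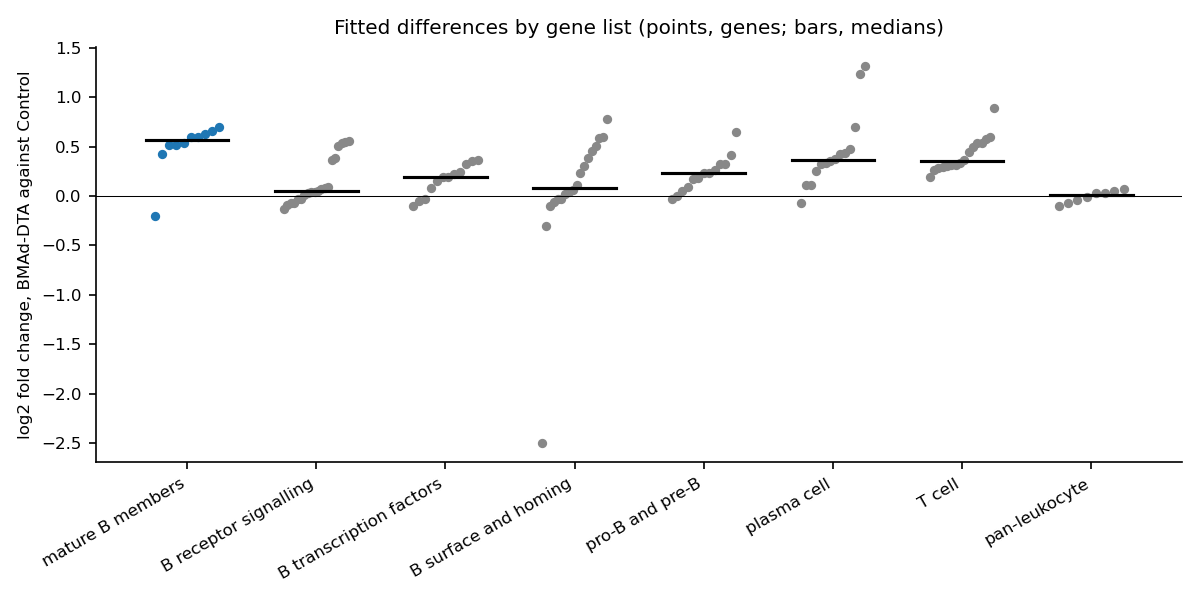
The fitted log2 fold change of BMAd-DTA against Control (vertical axis) is given for each tested gene of 8 lists, with a horizontal bar at the median of the list. In blue, 9 of the 10 mature B cell genes lie between 0.43 and 0.69, and the lowest point of the plot is Fcrl5 at -2.50.

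Markers of other cells differed between the groups to different extents. All 16 T cell genes were higher in BMAd-DTA tibiae, with a median of 0.35. Of these 10 had an unadjusted p under 0.05 in edgeR, against 16.4% of all genes tested, and none passed the adjusted threshold. Leaving out Control 1 gave a median of 0.34, and 5 genes had an unadjusted p under 0.05, against 1784 of 16766 in the whole table. The summed level of the T cell genes was 211 to 288 CPM in controls and 294 to 403 CPM in BMAd-DTA mice, which did not overlap. The summed osteoblast genes did not overlap either, at 2850 to 12963 CPM and 15285 to 35968 CPM. Of all single genes tested, 2.81% had groups that did not overlap. By flow cytometry of cells from long bones, the study reported fewer T cells and fewer nucleated marrow cells in BMAd-DTA mice. It reported no significant change for most mature blood cells. In its colony assays of tibial marrow, proliferation of B lymphocyte progenitors (CFU-preB) was impaired in BMAd-DTA mice. These are measures of cells and not of RNA in whole bone. Of the T cell genes, Cd8b1 was the highest at 0.89, Cd28 the lowest at 0.20 and Cd4 the most abundant at 0.58. Of the 8 pan-leukocyte genes 4 were higher and 4 lower, from Lcp1, the most abundant, at -0.099 to Laptm5 at 0.074, with a median of 0.0073 (0.0033 without Control 1), and their summed level overlapped fully between 4467 and 4726 CPM in controls and 3931 and 4800 CPM in BMAd-DTA mice. With libraries scaled to these genes the median of the 10 mature B cell genes was 0.57.

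Lymph node tissue could carry mature B cells into a bone sample, and of 8 genes of lymph node stroma 3 (Glycam1, Chst4 and Fcamr) were too low to be tested. The other 5 were 1 higher (Ccl21a at 0.19) and 4 lower (the lowest Madcam1 at -0.94, the most abundant Enpp2 at -0.26) with a median of -0.14, or -0.29 without Control 1, and their summed level was 47.6 to 97.3 CPM in controls and 41.5 to 71.8 CPM in BMAd-DTA mice. All 15 skeletal muscle genes were lower, from Myh1 at -1.76 to Myh2 at -0.22, with a median of -0.98 that was also the value of the most abundant, Atp2a1, none past the threshold, and a summed level of 24.4 to 1573 CPM in controls and 26.6 to 1186 CPM in BMAd-DTA mice. With a muscle score as a covariate the median of the mature B cell genes was 0.47.

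The 12 tested of 14 erythroid genes were all lower, from Rhag at -0.66 to Hbb-bs at -0.029 with Hba-a1, the most abundant, at -0.075. Their median was -0.47, 8 had an unadjusted p under 0.05 (against 16.4% of all genes tested) and none passed the adjusted threshold. Without Control 1 these were -0.31 and 7, against 1784 of 16766 genes in the whole table. Without Control 1 and BMAd-DTA 2 they were -0.28 and 4, against 1571 of 16660 genes in the whole table. Neutrophil genes ran from Cxcr2 at -0.25 to Mmp9 at 0.45, with Ngp, the most abundant, at 0.0021 and a median of -0.036 (-0.070 without Control 1). Macrophage genes ran from Adgre1 at -0.30 to Cd68 at 0.43, with Vcam1, the most abundant, at 0.084 and a median of -0.013 (-0.028 without Control 1). All 10 osteoblast genes were higher with a median of 1.14, and 1 of them, Alpl, passed the adjusted threshold at 1.16 (adjusted p 0.0326 in edgeR). All 10 adipocyte genes were lower with a median of -1.20, and Retn passed it at -1.38 (adjusted p 0.0205 in edgeR). Without Control 1 the adjusted p of both Alpl and Retn was 0.0889. The part of these other cells in the levels of the mature B cell genes was not tested beyond the scaling and the covariate given here.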

How the data were processed

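Total RNA of whole distal tibiae from 4 Control and 7 BMAd-DTA mice was sequenced as strand-specific paired-end mRNA libraries. The submitters' processing notes name FastQC 0.11.9, STAR, DESeq2 and the mouse build mm10, and the counting tool is not given in the sources used here. The deposited values are raw counts per gene for each library, which the authors had not normalised. The merged table of 22600 genes held the read-strand counts of the per-library files, and 1.46% of the counts of those files belonged to genes outside it. Over the 10 genes, 93.3% or more of the counts lay on the read strand, which matters for Ms4a1, Cd22 and Cxcr5, each of which overlaps a gene on the other strand.

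Samples were grouped by the genotype label. The numbers 1 to 4 and 1 to 7 follow the order of deposition and pair no mice, and no 2 libraries of a group agreed within sampling noise. CPM was computed here with the totals of the tested genes scaled by TMM. Genes were filtered with filterByExpr and tested with edgeR 4.0.16 (quasi-likelihood F test, R 4.3.3) with genotype as the only term, and p-values were adjusted by Benjamini-Hochberg over all 16496 genes tested. The threshold was an adjusted p of 0.05. For single genes, log2 CPM was also set against all allocations of the mice in an exact permutation test, two-sided. Positions are from GENCODE M21 (GRCm38), the annotation release behind the files is not given in the sources used here, and promoters are from RefSeq (GRCm38.p6).

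All 10 genes were reported, and each other list is represented by its genes past the threshold or, where there were none, by its highest and lowest log2 fold change and its most abundant gene, with ligands of the receptors, antibody genes and the 8 most similar genes in addition, of which 1 is not reported here. The 10 genes and the lists were chosen with earlier results of these data known, and the lists hold genes that other cells also express. The alternatives were DESeq2 1.42.0, limma 3.58.1 (voom, with and without sample weights), other scalings and filters, both strands, a muscle covariate and leaving out each library. The edgeR fit and the permutation test were tried on simulated data. These data had independent genes and no library that stood apart, so they cannot show the effect of Control 1. The p-values measure the spread between these mice, and counting intervals cover counting error only.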

Additional observations from a re-analysis of the deposited data

Results flagged for a closer look

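Among the 10 mature B cell genes and their Ighd to Ighm ratio, 1 of the 22 sets of values, each a gene or the ratio in 1 group, held a library far from the rest by Dixon's test at the 95% level. This was Cd79a in BMAd-DTA 2, at 531 CPM, where the nearest of the other BMAd-DTA libraries had 348 CPM (gap over range 0.628, past the critical value for 7 samples). Chance alone flags about 1 set in 20, so a single one among 22 is near that number. The same library was highest for 9 of the 10 genes. Without it the log2 fold change of Cd79a was 0.50, with the median of the 10 genes at 0.34.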

How the results depend on the processing

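No mature B cell gene reached an adjusted p of 0.05 under any of the 26 alternatives, and the lowest adjusted p was always that of Cd79a, from 0.1095 without Control 3 to 0.535. The median log2 fold change of the 10 genes was 0.47 to 0.58 under the other tools, scalings, filters and the covariate, and 0.34 (without BMAd-DTA 2) to 0.75 (without Control 4) when a library was left out. With Control 1 and BMAd-DTA 2 both left out, chosen after seeing the data, it was 0.16. The value for Ighm turned positive with voom sample weights (0.037), without Control 1 (0.20) and with both libraries left out (0.22), and its mean difference in log2 CPM, used in the permutation test, did so without Control 1 (0.16) and without BMAd-DTA 3 (0.034). When 1 library was left out these values for Ighm ran from -0.38 to 0.20 and from -0.35 to 0.16. The exact permutation p of Cd79a was 0.125 without Control 1. The difference in log2 Ighd to Ighm ratio was 0.090 to 1.02 when a library was left out. The number of genes called in the whole table, 13 in edgeR, was 845 with DESeq2, 20 with voom, 238 with voom sample weights, 32 with the robust fit, 20 with RLE scaling, 6 scaled to pan-leukocyte genes, 20 without immunoglobulin, globin and mitochondrial genes, 3 with the muscle covariate, 0 with both libraries left out and 0 to 292 when 1 was left out. The causes were not tested. No paired analysis was possible because the replicate numbers follow the order of deposition. Other depths were not tried, and counting error was at most 8.84% of a value for these genes.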
